A study of Mus musculus with 2 samples.

Results

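The genes described here are 10 genes of lipid handling in macrophages: Apoe, Lpl, Abca1, Abcg1, Nr1h3, Pltp, Cd36, Msr1, Fabp4 and Pparg. They were chosen by name with their measured ratios on these arrays already known, so their ratios are given as a description and carry no test. The array named 27600 genes, and these 10 had 16 probes in 34 spots. CD8+ T cells had been purified by negative selection, to over 90% purity per the labels, from mice on day 6 of infection with Listeria monocytogenes-OVA, a strain of the bacterium that carries ovalbumin as a model antigen. The deficient group came from mice of genotype Bcl11bF/F/dLck-iCre, where Cre driven by the distal Lck promoter of T cells deletes a floxed Bcl11b gene, and the control group came from wild type mice given the same infection. The stated purpose was to find genes that depend on Bcl11b, a DNA-binding zinc finger protein needed for T cell identity, in cytotoxic T cells responding to infection. RNA from each deficient sample, labelled with Cy5 (red), was hybridised together with RNA from a wild type sample, labelled with Cy3 (green), on a 2-colour Agilent mouse array. There were 2 such arrays, called biological replicates by the labels, and the number of animals behind each and their age are not given in the sources used here. Both arrays carried the dyes the same way round, so an effect of dye on a probe and an effect of genotype cannot be told apart.

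Macrophages take up lipoproteins and dying cells, and so load themselves with cholesterol and fatty acids. Oxidised cholesterol activates the liver X receptors, of which Nr1h3 encodes LXR alpha. With the retinoid X receptors these switch on genes that pass cholesterol out of the cell: the transporters Abca1 and Abcg1, the acceptor apolipoprotein E (Apoe) and the phospholipid transfer protein Pltp. Fatty acids activate PPAR gamma (Pparg), whose known targets include Cd36, Fabp4, Lpl and Nr1h3. T cells also use Abcg1 to limit their cholesterol.

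Sequence just upstream of the gene start is shown for the genes of this set whose ratios the results turn on: for Apoe, Nr1h3 and Pparg as genes higher in deficient RNA on both arrays, and for Abca1 as the gene that ran opposite ways. The sequences are the last 100 bases before a RefSeq gene start on build GRCm38.p6, read 5′ to 3′ on the gene's strand. Capitals mark matches to any of the searched motifs. The Apoe stretch is chr7:19699189-19699288 on the minus strand, that of Nr1h3 is chr2:91195117-91195216 on the minus strand, and that of Abca1 is chr4:53159896-53159995 on the minus strand. The Pparg stretches, from 2 of its 3 starts in the RefSeq table, are chr6:115361044-115361143 and chr6:115362249-115362348 on the plus strand.
Apoe: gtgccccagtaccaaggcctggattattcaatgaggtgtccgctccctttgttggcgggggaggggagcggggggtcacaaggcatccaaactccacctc
Nr1h3: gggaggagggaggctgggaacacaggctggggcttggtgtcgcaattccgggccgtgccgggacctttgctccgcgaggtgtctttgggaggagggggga
Abca1: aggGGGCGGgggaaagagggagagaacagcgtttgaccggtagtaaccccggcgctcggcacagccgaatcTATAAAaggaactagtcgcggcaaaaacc
Pparg, first start: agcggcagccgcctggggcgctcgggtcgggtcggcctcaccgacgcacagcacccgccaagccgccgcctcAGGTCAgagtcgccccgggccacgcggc
Pparg, next start: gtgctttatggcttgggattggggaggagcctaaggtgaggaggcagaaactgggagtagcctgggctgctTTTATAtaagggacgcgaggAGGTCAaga

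The motifs searched, on both strands of the 300-base windows that run from 250 bases before to 50 bases after each start, were AGGTCA (the half-site bound by many nuclear receptors), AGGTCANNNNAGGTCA (the direct repeat spaced by 4 bases known for liver X receptors), AGGTCANAGGTCA (the direct repeat spaced by 1 base known for PPARs), TATAAA (the TATA box), GAGGAAG (a core bound by the myeloid factor PU.1), CACGTG (an E-box) and GGGCGG (a GC box). The direct repeats contain the half-site, so a match to one would also count for the other. The RefSeq table held 11 windows for 6 of the 10 genes, namely Apoe, Abca1, Nr1h3, Pltp, Cd36 and Pparg. Half-sites began at -28 from the first Pparg start printed, at -9 from the next and, on the other strand, at -228 from the Cd36 start. Of all 32851 windows, 16.3% held a half-site. Neither direct repeat was found in any window of the 6 genes, and they occurred in 0.0152% (spacing of 4) and 0.0396% (spacing of 1) of all windows. Abca1 had a TATA box at -29, an E-box at -147 and GC boxes at -163 and -97, while 13.6%, 7.15% and 35.7% of all windows held these motifs. TATA boxes also lay in the windows of Pltp (36), of the next Pparg start (-29, other strand) and of another of the 3 Apoe starts (-96, and -100 on the other strand), and GC boxes in those of Pltp, Cd36 and Pparg. The Apoe stretch printed holds no match. The GAGGAAG core, held by 13.6% of all windows, was found once, 10 bases after the Nr1h3 start at position 91195035. These matches describe the letters in the windows and say nothing of binding.

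Levels on each array were read against 153 negative control spots, which match no mouse transcript. In both arrays 26.0% to 32.4% of the 43379 gene spots were well above background in a given channel by the scanner program's flag. The median negative control gave 326.5 and 406.1 units in wild type and 968.4 and 706.9 units in deficient RNA (replicates 1 and 2), so a red and a green signal of one probe can be compared only after normalization. Bcl11b itself was lower in deficient RNA, by log2 ratios of -0.69 and -2.95 (mean -1.82 ± 1.60 SD, n = 2, with limma adjusted p = 0.000654). Here and below, limma used an SE of 0.418 shared by all genes, so a p-value does not reflect the SD of its own gene. Macrophage markers were higher in deficient RNA: 14 of 14 listed markers that could be tested were called higher, with a median log2 ratio of 2.37, and their summed normalized signal was 23450 and 12390 units in wild type against 116200 and 101300 units in deficient RNA. Of these 14, 12 had wild type RNA well above background on both arrays, and the others were tested through the deficient channel alone. Siglec1, Timd4, Mertk and Mrc1 could not be tested. T cell markers had a median of -1.23, with 6 of 12 called lower and 0 higher. Under median centring 10 of the 14 macrophage markers were called higher and 10 of the 12 T cell markers lower, and with the scanner program's log ratio 8 and 2. In total RNA of a cell preparation, more cells of a type and more RNA per cell cannot be told apart, and the part of other cells in the results on lipid handling was not tested.

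Of the 10 genes, 8 had a log2 ratio of deficient over wild type above 0 on both arrays, counting 1 probe per gene, and the other 2, Abca1 and Pltp, had opposite signs. Of all genes tested 32.5% were above 0 on both arrays. The 8 include Msr1, which was not above background and had opposite signs when its probes were averaged (0.11 and -0.06). Cd36, also among the 8, had opposite signs when its probes were averaged (-0.26 and 2.085). Lpl and Msr1 were counted among the 8 but were not among the genes tested. The genes at least 2-fold higher on both arrays were 3, Apoe, Nr1h3 and Abcg1, while 2.59% of the 9932 genes tested met that rule. Across all genes tested, limma called 3.66% higher and 5.97% lower (adjusted p at most 0.05). Of the 7 genes of this set in that fit, Apoe, Nr1h3, Abcg1 and Pparg were among those called higher, 4 in all, and 0 were called lower. Since the set was selected on these ratios, the counts are set down beside the background and nothing is read from them. Lpl, Pltp and Msr1 were not in the fit, because neither group's signal passed the background flag on the pair of arrays. Of the 7 genes that were, Pparg and Fabp4 were in it through the deficient channel alone, as was the brighter Cd36 probe, and Abca1 was in it through the wild type channel alone. The median over all 10 genes was 0.25 in replicate 1 and 1.38 in replicate 2. For all genes tested these medians were -0.22 and -0.01.

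**Figure D1:**
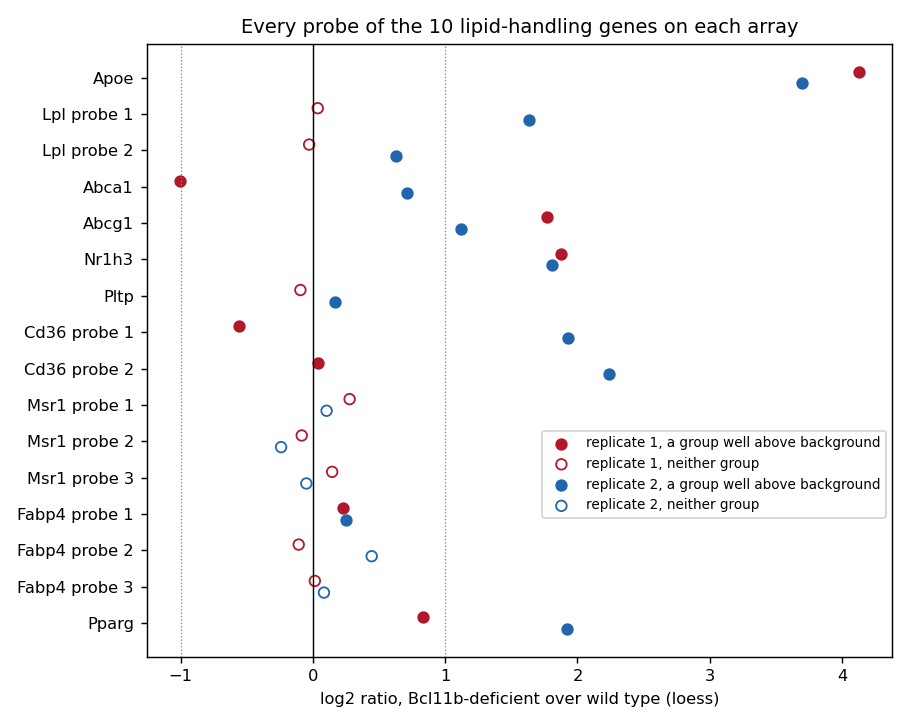
Log2 ratio of deficient over wild type RNA (x axis) for each of the 16 probes of the 10 genes (y axis), with replicate 1 in red and replicate 2 in blue. Filled points had at least 1 group well above background on that array, open points neither, and dotted lines mark 2-fold. Apoe lies near 4 on both arrays, and the Cd36 probes lie near or below 0 in replicate 1 and near 2 in replicate 2.

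Apoe encodes the secreted apolipoprotein that carries cholesterol away from macrophages. Its probe (A_51_P171999, NM_009696, placed by the array files at chr7:18854905-18854964 on the minus strand of build NCBI36) was printed in 10 spots on each array. Mean spot signal was 5608 and 5613 units in wild type and 51120 and 93490 units in deficient RNA. The wild type signal lay above every negative control on both arrays, and all 10 spots were well above background in both channels of both arrays. So the transcript was measured in both genotypes. After background correction and loess normalization the log2 ratios were 4.13 and 3.70, a mean of 3.91 ± 0.30 (SD, n = 2) or 15.05-fold. This was the highest mean of the 9932 genes tested, rank 1.

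The repeat spots of Apoe show the technical spread of its ratio within a single array after loess. In replicate 1 the 10 spots gave log2 ratios from 4.05 to 4.17 with a median of 4.14 and an SD of 0.037. In replicate 2 the 8 spots that were not outliers ran from 3.62 to 3.77 with a median of 3.70 and an SD of 0.048. The ranges of the 2 arrays did not overlap, so after loess the arrays differed by more than repeat spots of an array did. With median centring in place of loess, the Apoe ratios were 2.46 and 3.41, in the reverse order. The spot spread therefore does not include the effect of the normalization chosen. Pparg was the other gene printed in 10 spots. Its 9 usable spots ran from 0.60 to 1.04 in replicate 1 (SD 0.156) and from 1.79 to 2.10 in replicate 2 (SD 0.126), again without overlap. Repeat spots share 1 hybridised sample, and their spread is technical.

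**Figure D2:**
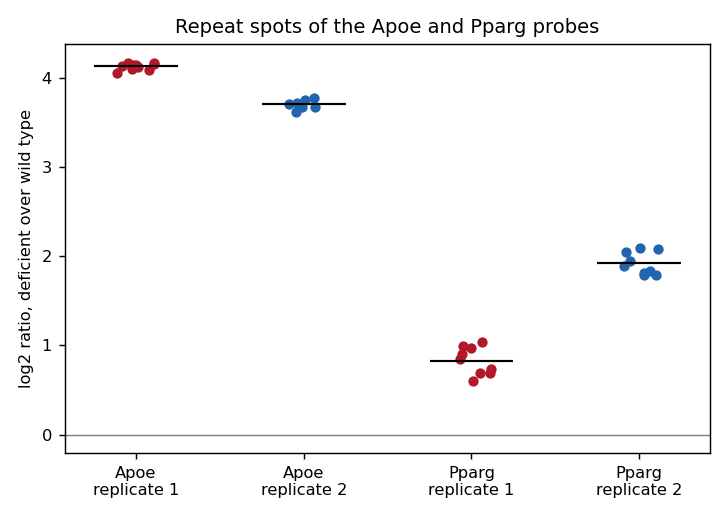
Log2 ratio of deficient over wild type RNA (y axis) of every usable repeat spot of the Apoe and Pparg probes on each array (x axis), with the mean of the spots as a line. Spots of an array lie close together, while Pparg moves from a median of 0.84 in replicate 1 to 1.89 in replicate 2.

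Nr1h3 encodes the oxysterol receptor LXR alpha. Its probe (A_52_P546421, NM_013839, chr2:90985117-90985176, minus strand, NCBI36) gave 623.0 and 747.1 units in wild type and 2421 and 3210 units in deficient RNA, well above background in all 4 measurements. The log2 ratios were 1.88 and 1.81, with a mean of 1.84 ± 0.05 (SD, n = 2), or 3.59-fold. Both arrays gave nearly the same ratio. Its mean took rank 135 of the genes tested. With other background corrections the mean ran from 1.38 (none) to 2.23 (fitted to the negative controls), and it was at least 2-fold on both arrays under all 9 alternatives tried. Among the 9, keeping outlier spots and averaging a gene's probes could not change a gene with 1 probe in 1 spot, such as Nr1h3.

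Pparg encodes PPAR gamma, the fatty acid receptor that drives lipid uptake and storage genes in macrophages and fat cells. The probe (A_51_P106799, NM_011146, chr6:115455814-115455873, plus strand, NCBI36) gave mean signals of 546.8 and 570.4 units in wild type and 1710 and 2540 units in deficient RNA. In wild type 10 of 10 spots were well above background in replicate 1 and 2 of 10 in replicate 2, against 10 of 10 in deficient RNA on both arrays. The wild type level was therefore close to the limit of detection. The log2 ratios were 0.83 and 1.92, with a mean of 1.37 ± 0.77 (SD, n = 2), and the ratio of replicate 2 was taken against a wild type signal mostly not above background. In replicate 1 it stayed short of 2-fold (1.78-fold). The mean ran from 0.98 without background correction to 1.99 with the scanner program's own log ratio.

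Abcg1 encodes the transporter that moves cholesterol to high density lipoprotein. The probe (A_51_P222467, NM_009593, chr17:30842647-30842706, plus strand, NCBI36) gave 2251 and 2455 units in wild type and 5056 and 7253 units in deficient RNA, well above background in all 4 measurements. The log2 ratios were 1.77 and 1.12, with a mean of 1.45 ± 0.46 (SD, n = 2), or 2.72-fold, at rank 238. With each array centred on its median in place of loess, the ratios were 0.32 and 0.91, a mean of 0.61. Under the same centring the mean of Apoe was 2.93 and that of Nr1h3 1.44, both still at least 2-fold on both arrays. Median centring also lowered the median of all genes from -0.12 to -0.41.

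Abca1, the companion transporter that loads cholesterol and phospholipid onto apolipoproteins, gave opposite signs on the 2 arrays. Its probe (A_52_P665675, NM_013454, chr4:53052172-53052231, minus strand, NCBI36) gave 531.8 and 623.0 units in wild type, well above background on both arrays. In deficient RNA it gave 1077 and 1517 units, well above background in replicate 2 alone. The log2 ratios were -1.002 and 0.71, with a mean of -0.15 ± 1.21 (SD, n = 2), at rank 5101. The arrays disagreed in direction under all 9 alternatives, and under median centring the mean was 0.04. Abca1 also had 1 probe in 1 spot, so keeping outlier spots and averaging probes could not change it.

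Pltp, which transfers phospholipids between lipoproteins, stayed near the detection limit. The probe (A_51_P226655, NM_011125, chr2:164531715-164535671, minus strand, NCBI36) gave 376.1 and 558.6 units in wild type and 1086 and 1089 units in deficient RNA. It was well above background in 1 of the 4 measurements, deficient RNA of replicate 2. The log2 ratios were -0.10 and 0.17, with a mean of 0.04 ± 0.19 (SD, n = 2). Against the lowest signal that counted as above background its fold was under 1, so none is given.

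**Figure D3:**
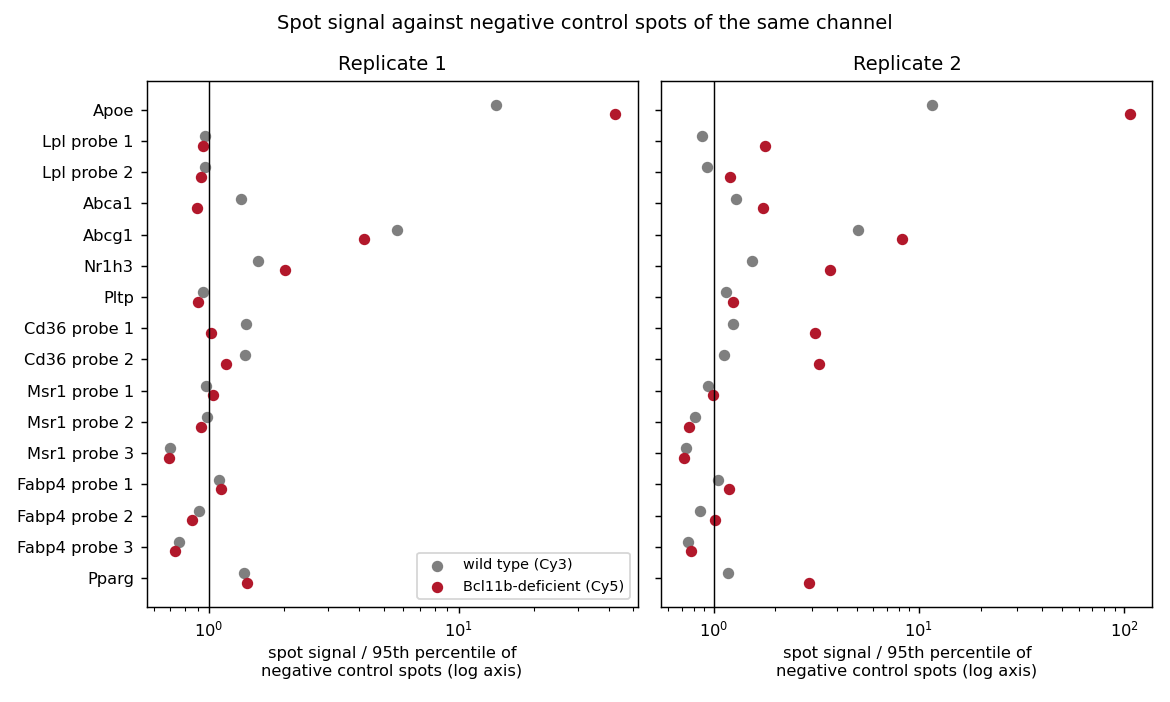
Mean spot signal of each probe of the 10 genes (y axis) divided by the 95th percentile of the negative control spots in the same channel (x axis, log scale), for wild type in grey and deficient RNA in red, with 1 panel per array. The Apoe, Abcg1 and Nr1h3 points lie right of the line at 1 in both groups on both arrays, whereas the 3 Msr1 probes and 2 of the 3 Fabp4 probes lie near or left of it.

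Lipid uptake was represented by Cd36, Msr1 and Lpl. Cd36, the scavenger receptor for oxidised lipoproteins and fatty acids, had 2 probes on the minus strand of chromosome 5. The first (A_51_P375146, NM_007643, chr5:17294606-17294665, NCBI36) gave 555.4 and 544.1 units in wild type and 1412 and 2851 units in deficient RNA. Its log2 ratios were 0.04 and 2.24, with a mean of 1.14 ± 1.56 (SD, n = 2). The other (A_51_P375138, L23108, chr5:17295116-17297548, NCBI36) gave log2 ratios of -0.56 and 1.93, from 557.1 and 604.2 units in wild type and 1228 and 2717 units in deficient RNA. In replicate 2 the deficient signal was well above background at both probes, and the wild type signal was so only at the other probe, where the fold was 3.81. In replicate 1 neither probe put deficient RNA clearly above wild type. Over the alternatives with both arrays the mean of the first ran from 0.86 to 1.64.

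Lpl, the lipoprotein lipase that frees fatty acids from triglyceride, showed the same split at lower signal. Its brighter probe (A_51_P259296, NM_008509, chr8:71835357-71835416, plus strand, NCBI36) gave 384.4 and 429.0 units in wild type and 1145 and 1563 units in deficient RNA. It was well above background in deficient RNA of replicate 2 alone, where the log2 ratio was 1.64, against 0.04 in replicate 1. The other probe (A_52_P257812, chr8:71830140-71830199) gave -0.03 and 0.63, again well above background only in deficient RNA of replicate 2. The scanner program's log ratio, which handles background differently, put the same 2 probes at 3.45 and 1.68 in replicate 2, so the size of the ratio is not fixed at this signal.

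Msr1, scavenger receptor A of macrophages, had 3 probes (A_51_P404846, A_52_P127130 and A_52_P607128), none of them well above background in either group on either array. Their log2 ratios lay between -0.24 and 0.28. The dimmest probe lay below every negative control in all 4 measurements. At these signals the arrays gave no usable level of Msr1 in either genotype.

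Fabp4, the cytosolic fatty acid carrier of fat cells and macrophages, also had 3 probes. The brightest (A_51_P336830, NM_024406, chr3:10187065-10187794, minus strand, NCBI36) gave 435.4 and 512.9 units in wild type, not well above background, and 1343 and 1036 units in deficient RNA, well above background on both arrays. Its log2 ratios were 0.23 and 0.25, over a wild type signal that was not above background. Measured against the lowest signal that counted as above background, deficient RNA was 1.16-fold higher under the main background correction. Without that correction the mean log2 ratio was 0.13, so 1.16-fold is not a firm lower limit. The remaining probes (A_51_P336833 and A_52_P564544) were not well above background in any measurement and gave ratios from -0.11 to 0.44.

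By their values the 10 genes thus fell into those higher on both arrays with both groups measured (Apoe, Nr1h3, Abcg1), Pparg, higher on both with wild type near the detection limit, those higher only in replicate 2 (Cd36, Lpl), a gene of opposite signs (Abca1), and those near the negative controls (Pltp, Msr1, Fabp4). Counted in replicate 2 alone, 6 genes were at least 2-fold higher, and in replicate 1 alone 3 were. The pattern of Lpl was also that of Mrc1 (0.34 and 2.64) and Mertk (0.11 and 1.32) of the macrophage list and of Clec9a (-0.68 and 2.41) and Flt3 (-0.47 and 1.29) of the dendritic cell list. These were well above background only in deficient RNA of replicate 2, and all but Mertk were picked out after their values were seen. By contrast, 12 of the 14 macrophage markers tested were at least 2-fold higher on both arrays. Siglec1, not tested, gave 0.087 and 0.053 at probe A_51_P359891 and -0.408 and -0.258 at probe A_52_P519960. In the dendritic cell list Itgax (1.23 and 2.77) and Batf3 (1.05 and 2.38) were higher on both arrays. Of the same list, Ccr7 gave -0.77 and -0.17, Xcr1 -1.755 and 0.99, and Siglech 0.274 and 0.265.

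The genes whose pair of ratios lay nearest to that of Apoe, by Euclidean distance over the 2 arrays, were Slpi (3.78 and 3.23, distance 0.579), C1qc (3.67 and 3.31, distance 0.596), Adgre1 (3.38 and 3.32, distance 0.833), Rab7b (3.65 and 3.004, distance 0.839) and Fcer1g (3.27 and 3.55, distance 0.868). C1qc encodes a complement C1q chain made by macrophages, Adgre1 the macrophage surface marker F4/80, and Fcer1g the signalling chain of Fc receptors. With 2 arrays this likeness is a description of where genes lie, and arrays share their RNA source across all genes.

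**Figure D4:**
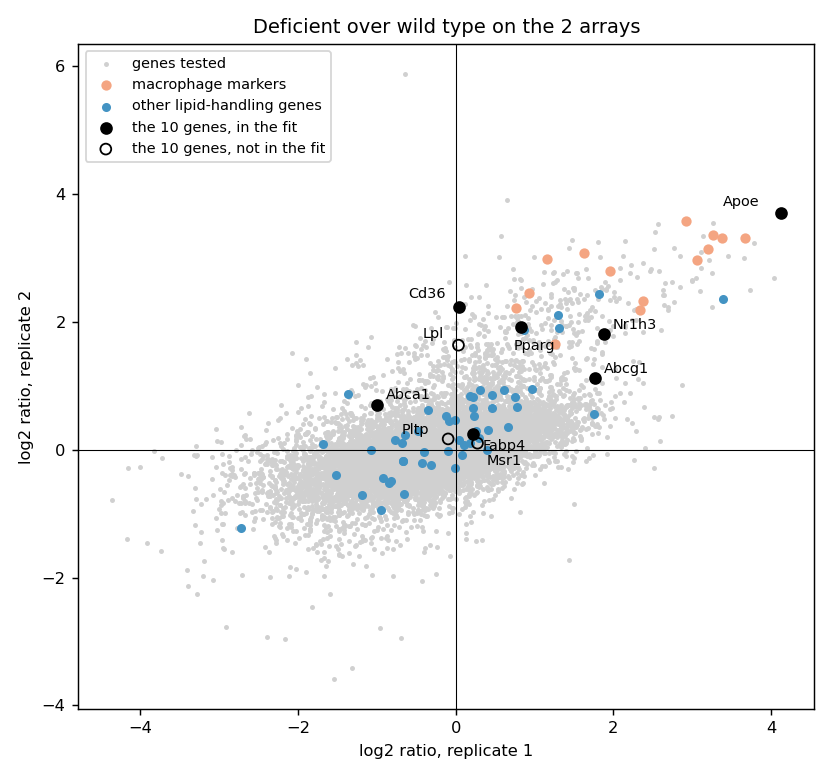
Log2 ratio of deficient over wild type RNA in replicate 1 (x axis) against replicate 2 (y axis) for the 9932 genes tested (grey), with macrophage markers in orange, other lipid-handling genes in blue and the 10 genes in black (open where not in the fit). Apoe lies farthest to the upper right of the named genes, Nr1h3 and Abcg1 lie to the upper right, and Cd36 and Lpl lie above 1.6 in replicate 2 at about 0 in replicate 1.

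Apoe lies in a cluster of apolipoprotein genes on chromosome 7, and the neighbours in the RefSeq gene order were looked up after the values of Apoe were seen. Apoc1, next to Apoe and encoding an inhibitor of lipoprotein uptake, was also higher, with log2 ratios of 3.39 and 2.35 (mean 2.87 ± 0.73 SD, n = 2; limma, adjusted p = 3.05e-09). Apoc2, the cofactor of lipoprotein lipase, gave 0.47 and 0.65 and was not called (adjusted p = 0.453). Apoc4 was not well above background in any measurement. On the other side Tomm40, of the mitochondrial import pore, gave -0.13 and -0.06 (adjusted p = 0.915). Of the 4 neighbours named here, only Apoc1 was called.

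Of 80 further genes of lipid handling listed with earlier results of these data known, 55 could be tested: 8 were called higher, 1 was called lower and 46 were not called. Of all genes tested, 3.66% were called higher and 5.97% lower. Since the lists were written with results known, nothing is read from these counts or those below. The median log2 ratio of the 55 was 0.18, against -0.12 for all genes tested. With median centring in place of loess 2 of them were called higher, Apoc1 and Cd5l, and 2 lower, Ppargc1b and Arl4c, the latter named after its values were seen. Among 7 scavenger and lipoprotein receptors tested, 4 were higher: Marco, a scavenger receptor of marginal zone macrophages (2.35 ± 0.03, adjusted p = 2.65e-06), Lrp1, a receptor for Apoe-bearing particles (1.71 ± 0.57, adjusted p = 0.00173), Stab2, a scavenger receptor of sinusoids (1.60 ± 0.42, adjusted p = 0.00365), and Cd68, of macrophage lysosomes (1.49 ± 1.04, adjusted p = 0.00804). Of 11 apolipoproteins, lipases and partners tested, Apoc1 and the lysosomal phospholipase Pla2g15 (1.37 ± 0.71, adjusted p = 0.0181) were higher, 2 in all. Pla2g15 and Cd68 were each called in 4 of 8 alternatives of scaling, background and outliers, Lrp1, Stab2 and Plin2 (below) in 5, and Marco in 7. Marco, Cd68 and Cd5l, 3 of the 8 genes called higher, also stood in the list of macrophage markers.

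Among 11 other known liver X receptor targets tested, 2 were higher: Apoc1 and Cd5l, an inhibitor of apoptosis secreted by macrophages (3.17 ± 0.04, adjusted p = 3.26e-11). Both were also called under each of the 8 alternatives. The median of these 11 was 0.20, and it was -0.55 under median centring and between 0.14 and 0.32 under the other 7. Among 10 genes of fatty acid binding and storage tested, the lipid droplet coat protein Plin2 was higher (2.13 ± 0.45, adjusted p = 3.22e-05), whereas Soat1, which esterifies cholesterol for storage, gave 0.79 ± 0.06 and was not called (adjusted p = 0.247). Hilpda, a lipid droplet protein induced by low oxygen, gave -0.68 ± 0.23 (adjusted p = 0.335). Of 10 lipid transporters tested none was called, and the largest means were those of Abcd3, a peroxisomal importer (-0.96 ± 0.79, adjusted p = 0.137), and Scarb1, a receptor for high density lipoprotein (0.66 ± 0.29, adjusted p = 0.356). Each of these values is a mean log2 ratio with its SD over 2 arrays, tested with limma.

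Of 10 further lipid-sensing receptors and regulators tested, 0 were called higher and 1 was called lower, with a median of -0.28. That gene was Ppargc1b, a coactivator of mitochondrial genes, at log2 ratios of -2.72 and -1.22 (adjusted p = 0.000173), called lower in 6 of the 8 alternatives. It was not well above background in deficient RNA, and wild type was at least 2.25-fold higher under the main background correction. Without that correction its mean log2 ratio was -1.04. Insig2, which holds back sterol synthesis, gave -1.68 and 0.10 (adjusted p = 0.248). Rxra, the partner receptor of LXR and PPAR proteins, gave 0.62 and 0.94 (limma, adjusted p = 0.255). Under the main background correction it was at least 1.67-fold higher in deficient RNA, with wild type not well above background. Without that correction its mean log2 ratio was 0.47. Nr1h2, which encodes LXR beta and was picked out after its values were seen, gave -0.67 and -0.18 (adjusted p = 0.579), well above background in both groups on both arrays. None of the 5 enzymes of oxysterol synthesis and breakdown listed, Ch25h among them, could be tested.

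Genes of this set are also known from fat cells, endothelium and platelets, and markers of those cells were read beside them. Of 6 adipocyte markers 0 could be tested, and Adipoq and Cidec were not well above background in either group on either array, while Plin1 was so on 1 array in each group. Among endothelial markers, Pecam1 gave -0.01 ± 0.12, Kdr gave 0.42 ± 0.28 and Cdh5 was not well above background. Vwf, which platelets and endothelium both make, was higher (1.59 ± 0.08, adjusted p = 0.00398) and was picked out after its values were seen. Of 2 platelet markers tested, Clec1b was higher (1.69 ± 0.28, limma, adjusted p = 0.00195) and was also picked out after its values were seen. Clec1b was in the fit through the deficient channel alone, with wild type well above background on only 1 array. Itga2b gave 0.57 ± 0.34 and was not called. Pf4 was not well above background. Vwf and Clec1b were each called in 5 of 8 alternatives, and not under median centring, the scanner program's log ratio or the deposited table. The liver markers Alb and Apoa1 were not well above background either. Of the named macrophage markers besides Cd68, Adgre1 gave 3.35 ± 0.04, Csf1r 3.25 ± 0.46 and C1qa 2.36 ± 1.03. T cell markers Cd3e and Cd8a gave -2.34 ± 0.53 and -0.91 ± 0.33. Among markers of other leukocytes, Ms4a1 of B cells gave 1.94 ± 0.74, S100a8 of neutrophils 2.46 ± 0.32 and Itgax of dendritic cells 2.00 ± 1.09. Called higher were 3 of 6 B cell markers tested (median 1.28), 3 of 6 neutrophil markers (median 1.41) and 2 of 4 dendritic cell markers (median 0.67), and 0 were called lower. Camp, 1 of those neutrophil markers, was in the fit through the deficient channel alone. Erythroid markers were called higher in 4 of 4 tested, with a median of 1.44 (0.74 in replicate 1 and 2.34 in replicate 2). These counts depended on the processing. Under median centring 0 erythroid, B cell and dendritic cell markers were called higher, and 2 neutrophil markers were. With the scanner program's log ratio the counts were 0, 0, 0 and 1. Erythroid calls were 2 without background correction and 1 with background fitted to the negative controls. The part of these cells in the ratios of the 10 genes was not tested.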

How the data were processed

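The deposited scanner files give each spot's mean intensity in red and green and the median intensity of its surroundings. Per the file headers, Agilent Feature Extraction 9.5.3.1 produced them. It also computed a log10 ratio, red to green, and a flag, used here, for spots well above background, per the file headers. That log10 ratio, rounded, is what the authors deposited as the value table.

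Background was corrected with normexp (offset 50) and loess normalization was applied array by array with limma 3.58.1 in R 4.3.3, and outlier spots (255 and 195 gene spots) were left out. Repeat spots were averaged. A probe was tested where the same channel passed the flag on each array, in at least 0.5 of its spots, which left 12624 probes and 9932 genes, each gene by its brightest probe. The log2 ratio was tested against 0 with eBayes after lmFit (two-sided, adjusted by Benjamini and Hochberg's method over all genes, threshold 0.05). The script was run on simulated ratios drawn independently with the same SD for all genes, so that run cannot check whether these arrays meet that assumption. The variance was shrunk to 1 value for all genes (SE 0.418). A p-value thus sets a gene's mean log2 ratio against the spread between these 2 arrays pooled over genes. It does not show whether the 2 arrays gave that gene similar ratios. At least N-fold values compare the brighter group with the lowest signal well above background in the other, after normalization per channel. Where the dim group's own signal was higher than that, its own signal was used. These values hold for the main background correction only and are open to dye bias.

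The 10 genes and the gene lists were chosen with earlier results of these data known. All probes of the 10 genes are described. From each pathway list, up to 4 called genes with the smallest adjusted p are named and, where fewer than 2 were called, up to 2 uncalled genes with the largest absolute mean, together with fixed marker genes, of which 1 is not reported here, and the 5 genes nearest to Apoe. Probes keep the positions given by the array files (NCBI36), and exons were not assigned. Promoter sequences are RefSeq's on GRCm38.p6 and were not combined with them. Both arrays lie on 1 slide, so slide could not be tested as a batch.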

Additional observations from a re-analysis of the deposited data

How the results depend on the processing

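The count of genes called (957, of which 364 higher and 593 lower) was 482 (293 higher, 189 lower) without background correction, 113 (50 and 63) with the scanner program's log ratio and likewise 113 with the deposited value table, and 417 (69 and 348) with median centring. Without the filter on dim probes limma called 0 of 27598 genes, with 5115 at an unadjusted p under 0.05. Centred on the median gene it called 1099 (538 and 561), and with both channels required above background 767 (551 and 216), which left 3 of the 10 genes, Apoe, Abcg1 and Nr1h3. Other lipid-handling genes called (9) fell to 3 with the scanner program's log ratio, 3 with the deposited table, 4 with median centring (2 higher, 2 lower) and 0 without the filter. The number of the 10 genes at least 2-fold higher on both arrays (3) ran from 2 to 4 over 9 alternatives, and from 3 to 6 with 1 array left out. Over those 9, Apoe ran from 2.93 to 4.03, Lpl from 0.51 to 1.84, Cd36 from 0.86 to 1.64, Pltp from 0.03 to 0.55, Msr1 from 0.03 to 0.84 and Fabp4 from 0.13 to 0.87. The alternatives overlap: keeping outlier spots changes only the ratios of probes with such spots, and the deposited table is the scanner program's log ratio, rounded. Each ratio already pairs the samples that shared an array, so the test against 0 is the paired analysis and no further block could be added. With 2 arrays and 1 dye orientation, the size of a ratio near the negative controls is limited by signal over background.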
